A study of Mus musculus with 18 samples.

Results

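The genes described here encode the SREBP transcription factors and the proteins that hold, carry and cut them. They were the 7 rows of the deposited count table with the symbols Srebf1, Srebf2, Scap, Insig1, Insig2, Mbtps1 and Mbtps2, out of 55487 rows. All 7 passed the filter on low counts, as did 15381 genes in all, and none had fewer than 397 counts in any library.

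SREBPs are made as precursors in the membrane of the endoplasmic reticulum (ER), where they are bound to SCAP, the escort protein. When sterols are plentiful, SCAP is held in the ER by the INSIG proteins. When sterols are low, COPII vesicles carry the complex to the Golgi, where the site-1 protease (Mbtps1) and the site-2 protease (Mbtps2) release the part that enters the nucleus. SREBP2, the product of Srebf2, mainly drives genes of cholesterol synthesis and uptake, and SREBP1, the product of Srebf1, mainly drives genes of fatty acid synthesis. Insig1 and Srebf2 are themselves known targets of nuclear SREBP, so that the pathway feeds back on its own parts.

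RNA was sequenced from wild-type MEFs, a mouse embryonic fibroblast line, in 6 groups of 3 libraries. One group was kept in Scm, complete medium with S-FBS, a serum under which MEFs are sensitive to ferroptosis. Another was kept in Rcm, complete medium with R-FBS, a serum under which they are resistant. Ferroptosis is an iron-dependent death of cells by lipid peroxidation. R-Scm names MEFs that were grown in Rcm and harvested 12 h or 24 h after they had been given Scm, and S-Rcm names the exchange in the opposite direction at the same times. The groups ask which transcripts follow the serum and how fast they do so after an exchange. No group received fresh medium with its own serum, so that the change of serum and the change of medium cannot be told apart within one exchange. The labels number the replicates but do not say that they were separate cultures, so that p values measure the spread between these libraries, which may be technical.

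Libraries held 14534906 to 20313715 counts. The 10 fibroblast markers, of which 9 were tested, summed to 8058 to 12538 CPM (counts scaled to the library total with TMM factors). Vim was the highest of them, while Dcn lay between 1.38 and 10.1 CPM and Lum between 0 and 0.187 CPM. Summed epithelial, endothelial and hepatocyte markers stayed at or below 0.858, 3.13 and 0.249 CPM, and leukocyte markers, nearly all of it Cd68, at 2.02 to 5.09 CPM. Replicate 1 of R-Scm 24 h lay furthest from its group. Its root mean square distance to the other libraries of its group was 0.562 on the log2 CPM scale, above the 0.394 to 0.502 of the other 17 libraries. Replicates 2 and 3 of R-Scm 24 h lay at 0.496 and 0.502, and replicate 3 of Rcm at 0.496. The tests of R-Scm 24 h for Insig1 and Srebf2, and the counts of genes set beside them, are also given without replicate 1 of R-Scm 24 h.

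The promoters of the members were searched for motifs of SREBP and of its usual neighbours on DNA. Windows of 300 bases, 250 before and 50 after each RefSeq start (GRCm38.p6), were found for all 7 members, 12 windows in all. The motifs were the core of the sterol regulatory element TCACNCCAC, the NF-Y box CCAAT, the E-box CACGTG and the GC box GGGCGG, each on both strands. A shorter core, TCACNCCA, which overlaps the longer one, was added after the windows had been read. The 250 bases before the start are shown for Srebf2 and Insig1, the members whose levels moved most, with every match in capitals.

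Srebf2, chr15:82147019-82147268, plus strand: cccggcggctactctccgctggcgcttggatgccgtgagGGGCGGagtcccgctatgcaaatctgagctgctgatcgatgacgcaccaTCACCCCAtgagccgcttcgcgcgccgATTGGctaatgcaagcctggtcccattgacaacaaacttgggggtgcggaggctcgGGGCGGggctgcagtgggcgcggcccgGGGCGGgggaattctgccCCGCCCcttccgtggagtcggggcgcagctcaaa
Insig1, chr5:28071162-28071411, plus strand: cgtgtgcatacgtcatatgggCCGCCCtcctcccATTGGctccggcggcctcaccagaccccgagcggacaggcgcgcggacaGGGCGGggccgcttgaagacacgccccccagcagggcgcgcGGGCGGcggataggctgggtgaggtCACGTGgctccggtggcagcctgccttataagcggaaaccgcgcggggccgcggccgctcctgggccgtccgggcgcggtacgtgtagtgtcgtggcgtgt

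The Srebf2 window held the short core TCACCCCA from 162 to 155 bases before the start, followed by a reversed NF-Y box from 135 to 131 bases before it. The short core was found in 4.36% of all 32851 windows, and Srebf2 was the member that held it. The longer core was in none of the 12 windows and in 1.24% of all windows. The Insig1 window held an E-box from 101 to 96 bases before the start and a reversed NF-Y box from 216 to 212 bases before it. An E-box was present in 7.15% of all windows, an NF-Y box in 37.4% and a GC box in 35.7%. The windows of Scap overlap and held the same E-box, Insig2 held 3 NF-Y boxes in its first window, and Mbtps2 held none of the motifs. These are matches of letters within the windows.

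The members differed widely in their level per length of exon. Over the 18 libraries, Srebf2 averaged 62.6 RPKM (CPM divided by the exon length in kilobases), Insig1 37.7, Scap 24.4, Mbtps1 15.7, Srebf1 15.1, Insig2 8.95 and Mbtps2 4.38 RPKM. Srebf2 was the highest member in all 18 libraries, Insig2 was the sixth and Mbtps2 the lowest in all 18. Insig1 lay above Scap in 14 of 18 libraries. Mbtps1 lay above Srebf1 in 12 of 18, and the levels of these genes overlapped between libraries.

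**Figure D1:**
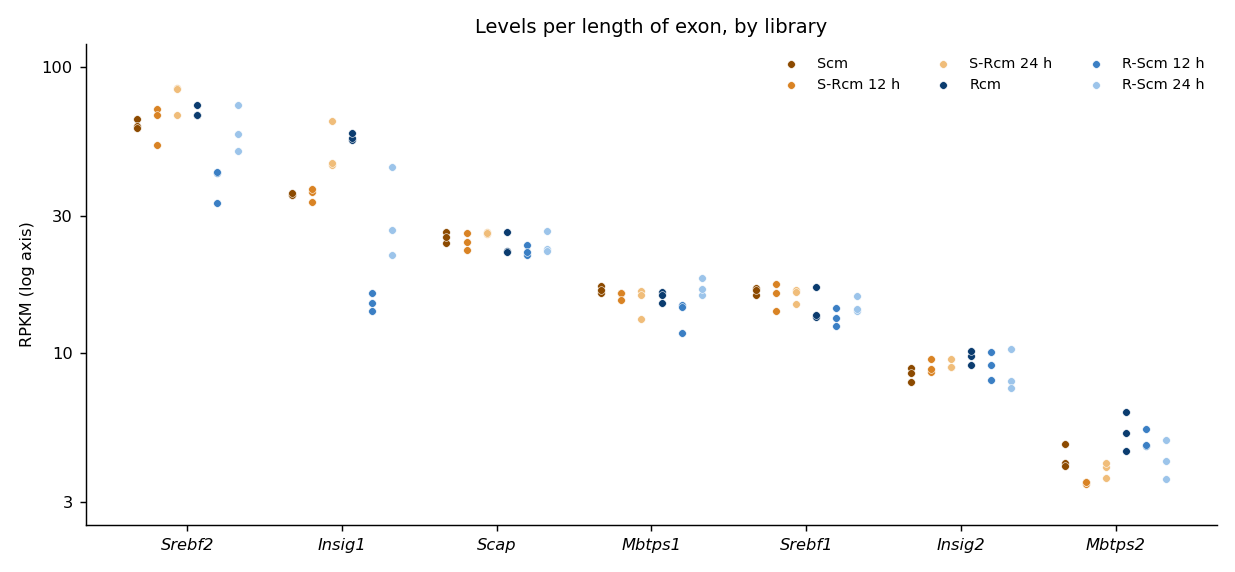
RPKM (log axis) of the 7 members, ordered by their mean, with 1 point for each of the 18 libraries, coloured by group. Srebf2 tops every library and Mbtps2 is lowest in every library, while Insig1 spreads from 13.96 to 64.3 RPKM.

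The spread over the libraries was just as uneven. Between the lowest and the highest library, the level of Insig1 varied 4.61-fold, Srebf2 2.51-fold, Mbtps2 1.79-fold, Mbtps1 1.55-fold, Srebf1 1.40-fold, Insig2 1.37-fold and Scap 1.22-fold. A test over the 6 groups (edgeR's quasi-likelihood test, Benjamini-Hochberg adjusted over all 15381 genes) was passed by 3 of the 7 members, against 7.09% of all genes tested. These were Insig1 (adjusted p = 0.00019), Srebf2 (adjusted p = 0.00502) and Mbtps2 (adjusted p = 0.0387). Mbtps1 (adjusted p = 0.238), Srebf1 (0.287), Scap (0.49) and Insig2 (0.741) did not pass it. Leaving out each library in turn kept the call of Insig1 and of Srebf2 in 18 fits of 18 and that of Mbtps2 in 4 of 18 (edgeR adjusted p = 0.013 to 0.0985).

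**Figure D2:**
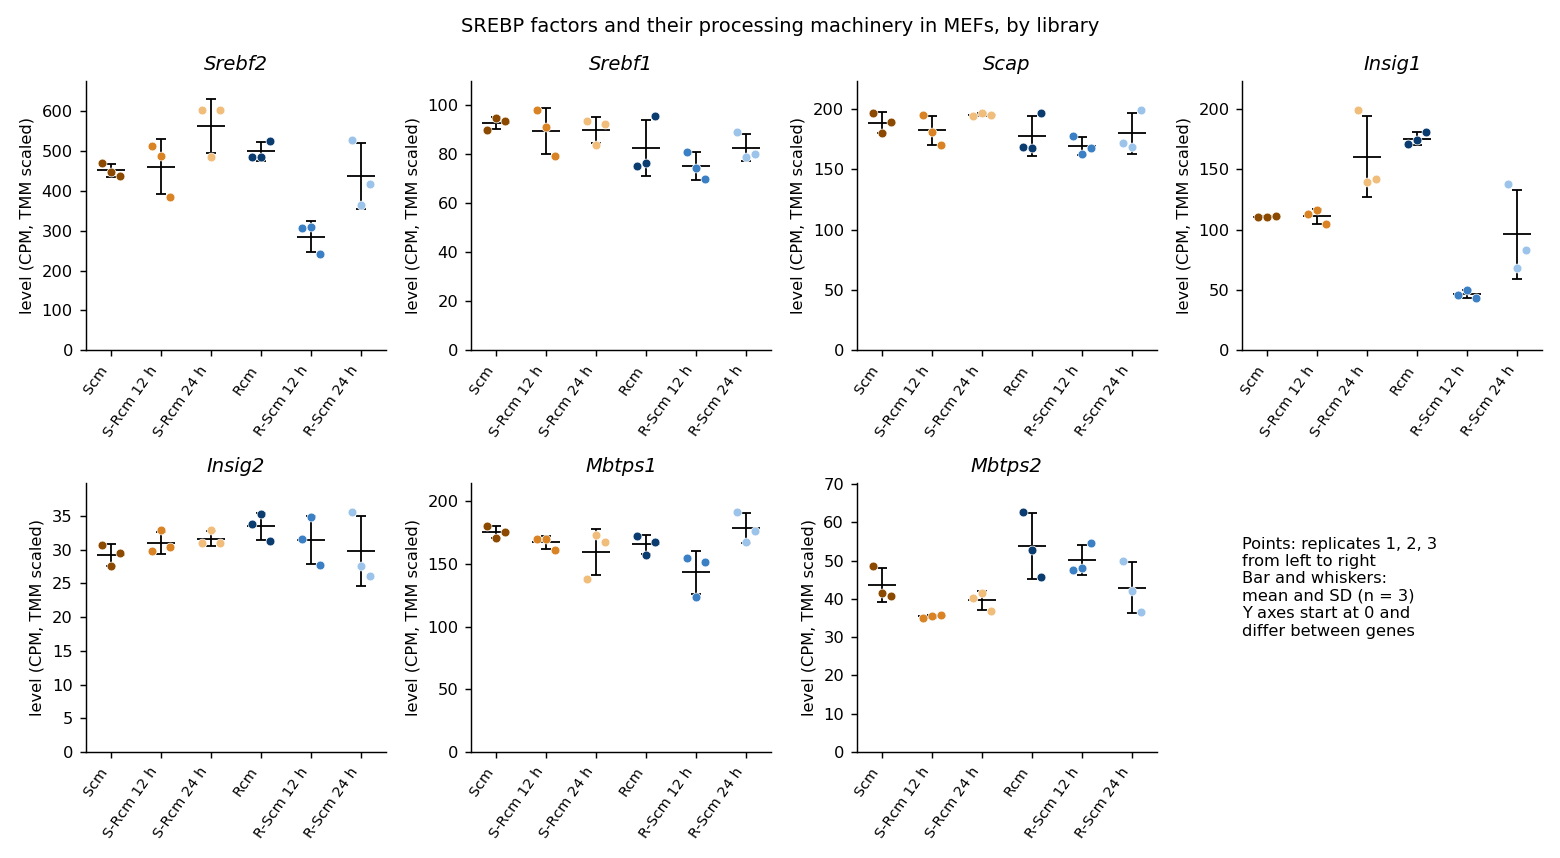
Level in CPM (TMM scaled) of each member in the 6 groups, with a point for each library and the mean and SD of 3 libraries as bar and whiskers. Insig1 falls to 43.2 to 50.1 CPM in R-Scm 12 h, below every library of the other groups, and Srebf2 to 240.4 to 308 CPM, while Scap and Insig2 stay nearly level.

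Insig1 (ENSMUSG00000045294, chr5:28071363-28078662), the INSIG that is itself induced by SREBP, had the widest range. It was at 171, 174 and 181 CPM in the libraries of Rcm and at 46.1, 50.1 and 43.2 CPM in those of R-Scm 12 h. The groups were far apart, and the level in R-Scm 12 h was 0.265-fold that in Rcm (log2 fold change -1.91 ± 0.19 SE, edgeR adjusted p = 3.76e-05). In bulk RNA, fewer transcripts per cell and fewer cells with the transcript cannot be told apart. In R-Scm 24 h, Insig1 was at 138, 67.9 and 82.8 CPM. The first of these libraries, which lay furthest from its group over all genes, was also the highest for Insig1. Against Rcm the log2 fold change at 24 h was -0.87 (95% interval -1.27 to -0.47, edgeR adjusted p = 0.0504), just short of the threshold, although no library of R-Scm 24 h reached those of Rcm. It was called in 3 of 14 alternatives, without replicate 1 of R-Scm 24 h (-1.22, edgeR adjusted p = 0.000121), in DESeq2 (-0.85, adjusted p = 0.00315) and in edgeR with a replicate block by the numbers of the titles (-0.90, adjusted p = 0.0318). The other 11 did not call it. Over the 14 the log2 values ran from -1.22 to -0.67, the latter without replicate 2 of R-Scm 24 h, and the adjusted p reached 0.496 by edgeR.

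Between the time points of this exchange Insig1 rose again. The level in R-Scm 24 h was 2.07-fold that in R-Scm 12 h (log2 fold change 1.05 ± 0.19 SE, edgeR adjusted p = 0.013), and the libraries did not overlap. Without replicate 1 of R-Scm 24 h the log2 fold change was 0.70 and the call held, but it was lost without replicate 3 of R-Scm 12 h (0.997, edgeR adjusted p = 0.0645) and in a fit of these groups alone (1.06, edgeR adjusted p = 0.35).

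The steady level in Scm was 110.35, 110.3 and 112 CPM for Insig1, above all 3 libraries of R-Scm 12 h. After 12 h in Scm the transcript thus lay below the level of cells kept in Scm, with a log2 fold change of -1.25 ± 0.19 SE (edgeR adjusted p = 0.000957). After 24 h it was not distinguished from Scm (-0.20, 95% interval -0.60 to 0.19, edgeR adjusted p = 0.769). Without replicate 1 of R-Scm 24 h the value was -0.56 (95% interval -0.84 to -0.27, edgeR adjusted p = 0.0887). This comparison with Scm was added after the levels had been seen.

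No change of Insig1 passed the test in the opposite exchange. The transcript was at 113, 116 and 104 CPM in S-Rcm 12 h, on both sides of the libraries of Scm, and the log2 fold change was 0.0036 (95% interval -0.39 to 0.40). In S-Rcm 24 h it was at 199, 139.7 and 142 CPM. All 3 libraries lay above those of Scm, but the log2 fold change of 0.53 (95% interval 0.14 to 0.93) did not pass (edgeR adjusted p = 0.371). Between Rcm and Scm the log2 fold change was 0.66 (95% interval 0.26 to 1.06, edgeR adjusted p = 0.0748), and 2 alternatives called this difference, DESeq2 (0.65, adjusted p = 0.0282) and edgeR on these groups alone (0.65, adjusted p = 0.00183). From highest to lowest, the mean level of Insig1 ran Rcm, S-Rcm 24 h, S-Rcm 12 h, Scm, R-Scm 24 h and R-Scm 12 h. Of the neighbours in this order, R-Scm 24 h and R-Scm 12 h differed by the test. The libraries of S-Rcm 24 h and S-Rcm 12 h did not overlap either, at a log2 value of 0.53 (95% interval 0.13 to 0.93, edgeR adjusted p = 0.354), and those of the other neighbours overlapped.

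Srebf2 (ENSMUSG00000022463, chr15:82147181-82205379), the gene of SREBP2, showed the same kind of course with a smaller range. It was at 485, 486 and 526 CPM in Rcm and at 306, 308 and 240.4 CPM in R-Scm 12 h. The groups did not overlap, and the level fell to 0.571-fold (log2 fold change -0.81 ± 0.14 SE, edgeR adjusted p = 0.00307). The libraries of R-Scm 24 h held it at 528, 365 and 417 CPM, with replicate 1 again the highest and above the range of Rcm. The log2 fold change against Rcm was -0.19 (95% interval -0.49 to 0.10, edgeR adjusted p = 0.699), and -0.35 without replicate 1 (95% interval -0.64 to -0.060, edgeR adjusted p = 0.183). From 12 h to 24 h Srebf2 rose 1.53-fold (log2 fold change 0.62 ± 0.14 SE, edgeR adjusted p = 0.0419). Leaving out each library in turn kept the call in 1 fit of 6, with log2 values of 0.46 to 0.73 and edgeR adjusted p of 0.0262 to 0.196. The lowest value was that without replicate 1 of R-Scm 24 h (edgeR adjusted p = 0.0904).

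Scm held Srebf2 at 470.2, 446 and 438 CPM, also above every library of R-Scm 12 h. The log2 fold change of R-Scm 12 h against Scm was -0.66 ± 0.14 SE (edgeR adjusted p = 0.00854), and without replicate 3 of R-Scm 12 h it was -0.55 (edgeR adjusted p = 0.056). In S-Rcm 12 h Srebf2 was at 513, 486 and 383 CPM, a range that spans that of Scm. In S-Rcm 24 h it was at 603, 485 and 601 CPM, above all libraries of Scm, with a log2 fold change of 0.32 (95% interval 0.024 to 0.61, edgeR adjusted p = 0.555). Rcm and Scm differed by 0.14 (95% interval -0.15 to 0.44). The mean levels ran S-Rcm 24 h, Rcm, S-Rcm 12 h, Scm, R-Scm 24 h and R-Scm 12 h, and the last pair differed by the test while the libraries of all other neighbours overlapped.

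Mir33, a microRNA that lies within Srebf2 and is known to target sterol transporters, had 0 counts in all 18 libraries. The methods of the study describe no libraries of small RNA, so that this says nothing of the mature microRNA.

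Whether the signed changes of the exchanges differed was tested directly, as the change of R-Scm from Rcm minus the change of S-Rcm from Scm. Equal changes of opposite sign can also pass this test, so that a call does not say that the exchanges differed in size. The Insig1 changes were -1.91 in R-Scm and 0.0036 in S-Rcm at 12 h, and -0.87 and 0.53 at 24 h. At 12 h the difference passed for 2 of 7 members, against 2.22% of all genes tested. Both were lower, as 1.21% of all genes were. The value was -1.92 ± 0.27 SE for Insig1 (edgeR adjusted p = 0.00108) and -0.84 ± 0.20 SE for Srebf2 (edgeR adjusted p = 0.033). At 24 h it passed for 1 member, Insig1 (-1.40 ± 0.27 SE, edgeR adjusted p = 0.0123), against 1.43% of all genes called and 0.845% called lower. Without replicate 1 of R-Scm 24 h the Insig1 value was -1.75 (edgeR adjusted p = 3.2e-05), and 5.49% of all genes were called. Srebf2 had -0.51 at 24 h (edgeR adjusted p = 0.27), and -0.67 without replicate 1 of R-Scm 24 h (edgeR adjusted p = 0.0442). The Insig1 difference at 12 h was called whichever library was left out (12 fits of 12), and at 24 h in 11 fits of 12. It missed at 24 h without replicate 3 of R-Scm 24 h (-1.28, edgeR adjusted p = 0.0542). The Srebf2 difference at 12 h was called in 3 of the 12, with log2 values of -0.95 to -0.73.

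**Figure D3:**
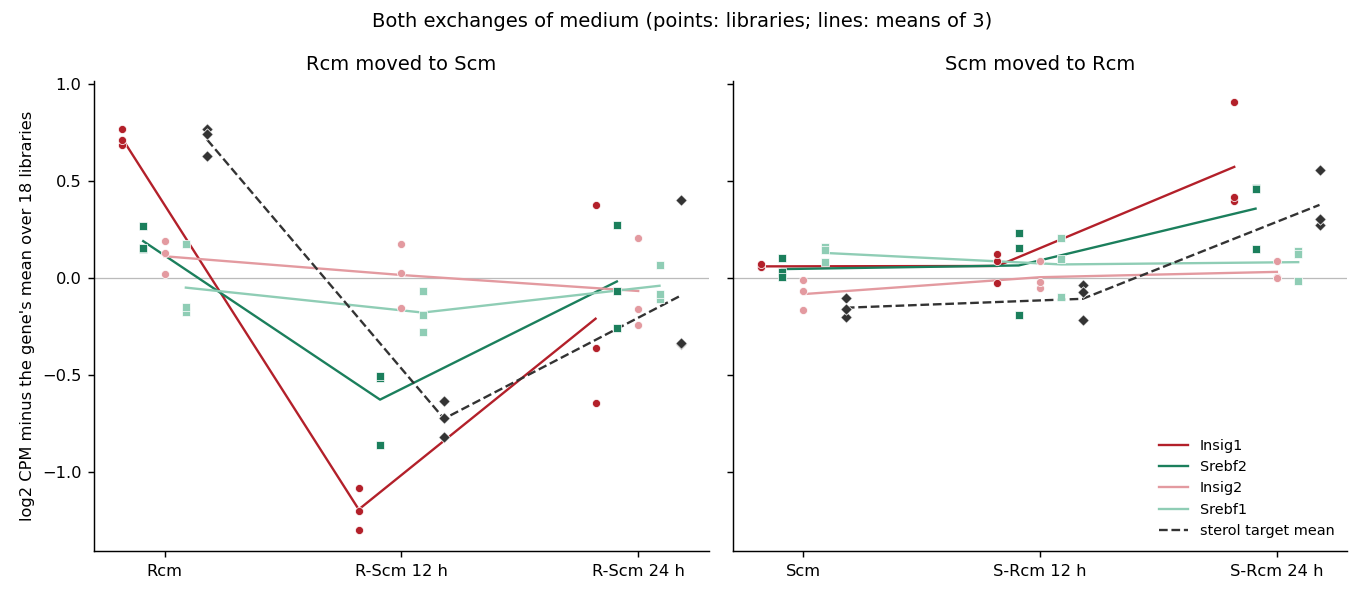
Log2 CPM of Insig1, Srebf2, Insig2, Srebf1 and the mean of 8 sterol targets, each minus its mean over 18 libraries, at the start, 12 h and 24 h of both exchanges, with points for libraries and lines through means. Insig1, Srebf2 and the sterol targets dip at R-Scm 12 h and lie higher again at 24 h, where replicate 1 lies above the other libraries, and in the opposite exchange their means lie higher at 24 h than at 12 h.

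No change of the paralogues of these genes passed the test in the comparisons of the study. Insig2 (ENSMUSG00000003721, chr1:121304353-121332589), which holds SCAP in the ER as INSIG1 does but is not a classic SREBP target, was between 26.1 and 35.6 CPM in all libraries. Its group means ran from 29.2 ± 1.58 CPM (SD, n = 3) in Scm to 33.5 ± 1.98 in Rcm. In R-Scm 12 h it was at 31.5, 34.9 and 27.8 CPM against 33.8, 35.3 and 31.3 CPM in Rcm, with a log2 fold change of -0.091 (95% interval -0.34 to 0.15). The libraries of all neighbours in the order of its groups overlapped, as did those of Srebf1 and Scap.

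Srebf1 (ENSMUSG00000020538, chr11:60199089-60222581), the gene of SREBP1, ranged from 69.8 to 97.9 CPM. It was at 75.0, 76.5 and 95.6 CPM in Rcm and at 80.9, 74.3 and 69.8 CPM in R-Scm 12 h, and these groups overlapped. The log2 fold change was -0.14 (95% interval -0.36 to 0.085, edgeR adjusted p = 0.558). Against Scm, where Srebf1 was at 89.9, 94.7 and 93.5 CPM, R-Scm 12 h lay lower in every library, with a log2 fold change of -0.31 (95% interval -0.53 to -0.084, edgeR adjusted p = 0.0862). Rcm against Scm gave -0.17 (edgeR adjusted p = 0.436), and -0.30 without replicate 3 of Rcm. Leaving out each library in turn gave edgeR adjusted p of 0.0913 to 0.817 there. The counts are of whole genes, so that the transcripts for SREBP1a and SREBP1c, which start at different promoters, are not separated. Srebf1 shares 109 exon bases with Rai1 on the opposite strand, and the use of strand in the counting is not given in the sources used here.

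Ratios within a library do not depend on its scaling. Insig1 had 4.93 to 5.78 counts for each count of Insig2 in Rcm, 1.44 to 1.55 in R-Scm 12 h and 2.45 to 3.86 in R-Scm 24 h. The log2 ratio averaged 2.39 ± 0.12 (SD, n = 3) in Rcm and 0.57 ± 0.059 in R-Scm 12 h, a difference of -1.82. It averaged 1.92 ± 0.077 in Scm, 1.84 ± 0.075 after 12 h of S-Rcm and 2.32 ± 0.32 after 24 h. The balance of the INSIG transcripts was thus nearest to even 12 h after the move to Scm. Srebf2 had 5.502 to 6.47 counts per count of Srebf1 in Rcm and 3.44 to 4.15 in R-Scm 12 h, with log2 ratios of 2.61 ± 0.13 and 1.92 ± 0.13. Over the 5 comparisons of the study and both ratios, 10 two-sided exact permutation tests were made. In 7 of them the libraries did not overlap, with p = 0.1 for each and an adjusted p of 0.143 by permutation. The overlap remained for both ratios in S-Rcm 12 h against Scm, and for Srebf2 to Srebf1 in R-Scm 24 h against Rcm. A p of 0.1 is the smallest that 3 against 3 libraries allow, so that none of these tests could pass the adjusted threshold. In the same comparisons, 11.2% to 26.4% of all single genes tested had libraries that did not overlap. How often ratios of other gene pairs are without overlap was not tested, so that the count of 7 is no result by itself.

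**Figure D4:**
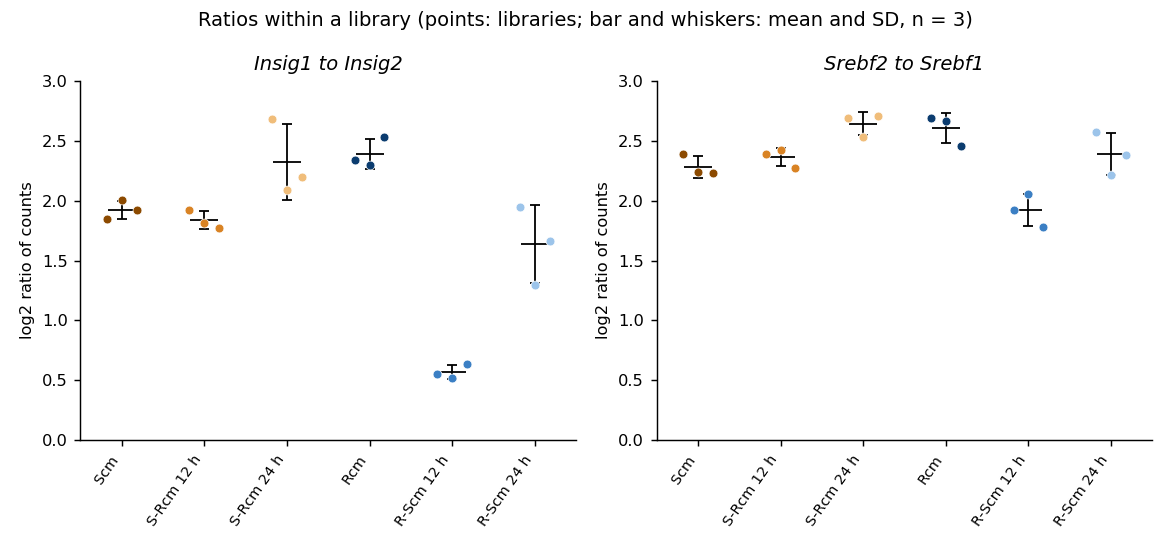
Log2 ratio of counts of Insig1 to Insig2 and of Srebf2 to Srebf1 in each library of the 6 groups, with the mean and SD of 3 libraries. R-Scm 12 h is the lowest group in both panels, at means of 0.57 and 1.92, and in neither panel does it overlap with Rcm.

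Scap (ENSMUSG00000032485, chr9:110333288-110384950), the escort of the SREBP precursors, was the steadiest member, at 163 to 199 CPM. It was at 168, 168 and 197 CPM in Rcm and at 177, 163 and 168 CPM in R-Scm 12 h, which overlap. Its log2 fold changes in the 5 comparisons of the study lay between -0.087 and 0.050, and the widest 95% interval limit among them was -0.27. Scap shares 985 exon bases with an antisense gene, 5830462I19Rik, that had 27 to 75 counts per library against 2519 to 3904 for Scap.

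Mbtps1 (ENSMUSG00000031835, chr8:119508156-119558735), the gene of the site-1 protease, was at 172, 157 and 168 CPM in Rcm, at 155, 124 and 152 CPM in R-Scm 12 h and at 192, 168 and 176 CPM in R-Scm 24 h. The libraries of R-Scm 12 h lay below all others of that exchange. Their difference from 24 h had a log2 value of 0.32 (95% interval 0.11 to 0.52), under the fold threshold and short of the adjusted threshold (edgeR adjusted p = 0.154). In the order of its groups, the neighbours Scm and S-Rcm 12 h did not overlap, with a log2 value of 0.070 (edgeR adjusted p = 0.819), and no neighbours differed by the test.

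Mbtps2 (ENSMUSG00000046873, chrX:157535371-157598715), the gene of the site-2 protease, followed an order of its own. It was at 62.8, 52.8 and 45.7 CPM in Rcm, at 47.6, 48.2 and 54.6 CPM in R-Scm 12 h and at 50.01, 42.1 and 36.7 CPM in R-Scm 24 h. It was at 48.6, 41.5 and 40.7 CPM in Scm, at 35.0, 35.6 and 35.8 CPM in S-Rcm 12 h and at 40.2, 41.6 and 36.9 CPM in S-Rcm 24 h. S-Rcm 12 h was the lowest group and lay below every library of the others. Against Rcm, the medium these cells had been moved to, the log2 fold change of S-Rcm 12 h was -0.60 ± 0.13 SE (edgeR adjusted p = 0.032), and 1 of 7 members was called in this added comparison, against 0.871% of all genes tested and 0.449% called lower. Leaving out each library in turn lost the call in 5 fits of 6, with log2 values of -0.70 to -0.47, and so did edgeR on these groups alone (-0.60, adjusted p = 0.0731). In the order of its groups, S-Rcm 24 h and S-Rcm 12 h were neighbours that did not overlap, with a log2 value of 0.16 (edgeR adjusted p = 0.786). Against Scm, its own start, the value was -0.30 (95% interval -0.57 to -0.032, edgeR adjusted p = 0.288).

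The row of Mbtps2 overlaps another gene. Yy2 lies within Mbtps2 on the same strand and shares 2867 exon bases with it. Its counts ranged from 12 to 70 in S-Rcm 12 h, from 82 to 143 in Rcm and from 10 to 194 over all libraries, beside 584 to 1007 for Mbtps2, and how reads in the shared bases were assigned is not given in the sources used here. With the counts of Yy2 added to those of Mbtps2, the log2 fold change of S-Rcm 12 h against Rcm was -0.69 (edgeR adjusted p = 0.00549). Every count of Yy2 in S-Rcm 12 h was below those in Rcm, so that the sum also holds the lower level of Yy2. It does not show a larger fall of Mbtps2 itself.

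The calls of the study's comparisons can be set beside those of all genes. A gene was called a DEG if it moved by more than 0.58 on the log2 scale in either direction with an edgeR adjusted p under 0.05. In R-Scm 12 h against Rcm, 2 of 7 members were DEGs and both were lower, while 2.74% of all genes tested were DEGs and 1.22% were lower. All 7 members had negative log2 values there, with a median of -0.14 against -0.0077 for all genes, and 5 of them did not pass. The signs of Scap and Mbtps2 turned when a single library was left out. No member was a DEG in Rcm against Scm, in R-Scm 24 h against Rcm, in S-Rcm 12 h against Scm or in S-Rcm 24 h against Scm, where 2.3%, 0.377%, 0.858% and 0.338% of all genes were. These shares stand for 354, 58, 132 and 52 genes, and leaving out each library in turn gave 178 to 574, 14 to 501, 36 to 76 and 6 to 28. The 501 genes were called without replicate 1 of R-Scm 24 h (3.19% of the genes tested there), when Insig1 was a DEG too. The 574 were called without replicate 3 of Rcm, and the 36 and the 6 without replicate 1 of Scm. At an unadjusted p under 0.05, 2, 2, 1 and 2 members passed in these comparisons by edgeR. The share of all genes at that threshold is not given, so that counts at it, here and for the lists below, are no result by themselves. DESeq2 called 1 member, Insig1, in each of the first pair and none in the others. Over all genes it called 484, 163, 254 and 136 in these comparisons. From R-Scm 12 h to R-Scm 24 h, 2 members rose, against 0.774% of all genes called and 0.332% called higher. Without replicate 1 of R-Scm 24 h this was 1 member, Insig1, against 1.97%. From S-Rcm 12 h to S-Rcm 24 h no member was called, against 0.156% of all genes. There 1 member had an unadjusted p under 0.05 by edgeR, and DESeq2 called no member and 86 genes in all. In R-Scm 12 h against Scm, 2 members were called, both lower, against 4.4% of all genes called and 1.29% called lower. Comparisons that share a group, such as both time points with Rcm, are not independent of each other.

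**Figure D5:**
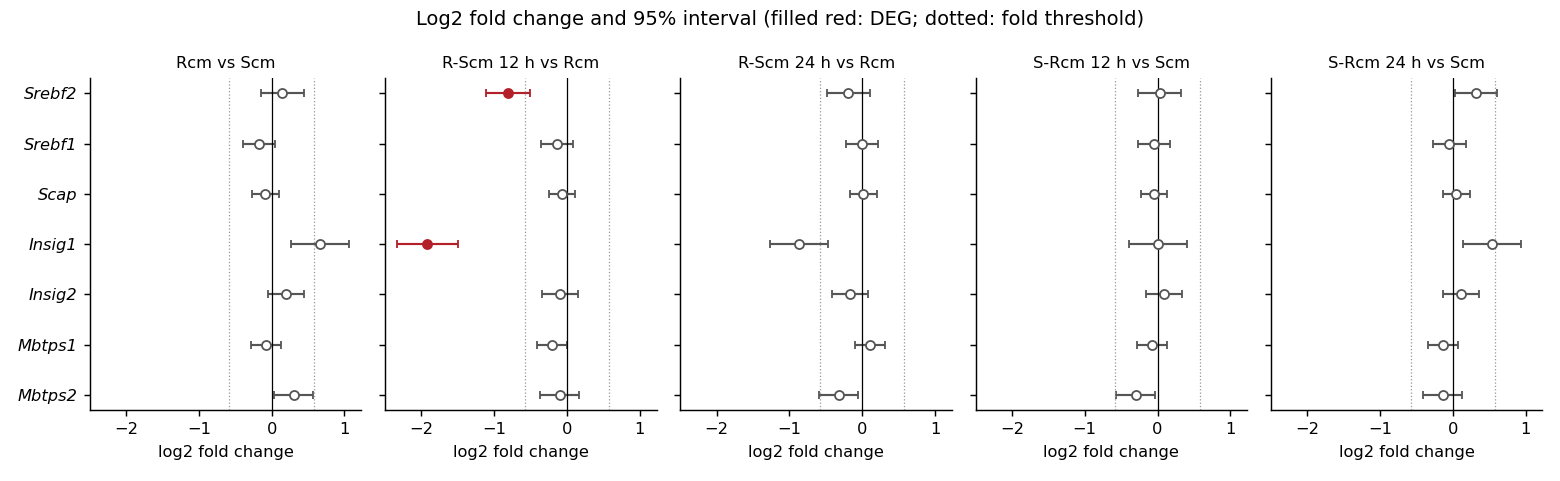
Log2 fold change with its 95% interval for the 7 members in the 5 comparisons of the study, with DEGs filled in red and the fold threshold dotted. Insig1 (-1.91) and Srebf2 (-0.81) in R-Scm 12 h against Rcm are the filled points, and the intervals of Scap stay between -0.27 and 0.23.

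Libraries of a pair of groups did not overlap for 3 of 7 members in Rcm against Scm, 3 in R-Scm 12 h against Rcm, 1 in R-Scm 24 h against Rcm, 2 in S-Rcm 12 h against Scm and 3 in S-Rcm 24 h against Scm. Over all genes tested the shares without overlap were 23.9%, 23.4%, 11.2%, 26.4% and 19.5%, so that these counts of members are no result by themselves. The shares for other pairs of groups are not given, so that a lack of overlap named for those pairs is description only.

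The partners of the members at each station of the pathway were counted by lists. Of 14 partners of INSIG at the ER, such as the ubiquitin ligases and Erlin proteins, 13 were not called in Rcm against Scm and 13 were not called in R-Scm 12 h against Rcm. The median log2 fold change of the list was -0.021 in R-Scm 12 h.

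None of the 12 genes of the COPII coat, which carries SCAP to the Golgi, was a DEG in any of the 5 comparisons of the study, and their median log2 fold change was -0.032 in R-Scm 12 h. The same held for 2 Golgi partners of SCAP and of the site-1 protease, and for 6 other substrates of the site-1 or site-2 protease that could be tested, out of 7. At an unadjusted p under 0.05, edgeR gave 0 to 2 genes of the COPII list, 0 of the Golgi list and 0 to 2 of the substrate list in a comparison, and DESeq2 called 0 of each. Of 16 nuclear partners of SREBP, which include the NF-Y subunits and the ligase gene Fbxw7, 1 was a DEG in R-Scm 12 h against Rcm. This was Lpin1, the gene of lipin 1, a phosphatidate phosphatase that restrains nuclear SREBP, which went from 51.6 ± 2.03 to 19.6 ± 0.516 CPM (log2 fold change -1.39 ± 0.24 SE, edgeR adjusted p = 0.00344).

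Known targets of SREBP were counted in the same way. Of 8 sterol targets, 8 were lower in R-Scm 12 h against Rcm, with a median log2 fold change of -1.45 against -0.0077 for all genes. In Rcm against Scm 5 were higher and 3 did not pass, and in R-Scm 24 h against Rcm 1 was lower and 7 did not pass. None passed in S-Rcm 12 h or S-Rcm 24 h against Scm, where the medians were 0.055 and 0.53, 0 and 6 had an unadjusted p under 0.05 by edgeR, and DESeq2 called none. In R-Scm 24 h against Rcm DESeq2 called 4, which included Idi1 and Hmgcs1. Without replicate 1 of R-Scm 24 h edgeR called 7 of the 8 lower in that comparison, and 3 of 8 lipogenic targets. Idi1 (-1.67), Hmgcs1 (-1.65) and Fdft1 (-1.49), enzymes of the cholesterol pathway, fell in R-Scm 12 h. Of 8 lipogenic targets, 5 were lower and 1 was higher in R-Scm 12 h, and in the other 4 comparisons edgeR called none, with 2 to 4 at an unadjusted p under 0.05. Acly missed only the fold threshold in Rcm against Scm (0.45, edgeR adjusted p = 0.00753) and in R-Scm 24 h against Rcm (-0.56, edgeR adjusted p = 0.00803). DESeq2 called Elovl6 and Scd1 in Rcm against Scm and Mid1ip1 in S-Rcm 24 h against Scm. Elovl6 (-1.16), an elongase of fatty acids, Scd1 (-1.01), the desaturase that makes monounsaturated fatty acids, and Acly (-0.86), which makes cytosolic acetyl-CoA, fell, while Mid1ip1, an activator of acetyl-CoA carboxylase, rose by 1.005 on the log2 scale. Several of these targets were used by the study on these samples, so that their counts are not independent evidence of direction.

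The mean log2 CPM of the 8 sterol targets was 7.54, 7.52 and 7.40 in Rcm. It was 5.95, 6.05 and 6.14 in R-Scm 12 h and 7.18, 6.43 and 6.44 in R-Scm 24 h. Replicate 1 of R-Scm 24 h, the highest of its group for Insig1 and Srebf2, was thus also the highest for these targets. The same library was the highest of its group for Srebf1, Insig2, Mbtps1 and Mbtps2 too, but not for Scap, so that its higher levels were not particular to Insig1, Srebf2 and these targets. The part of this library's other differences in the results was not tested.

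Genes with the most similar pattern over the 18 libraries were found by the root mean square difference of log2 CPM, each gene centred on its mean. For Insig1 they included Nsdhl (0.160), Fdps (0.184), Hmgcs1 (0.192) and Lss (0.211), where the median over all genes was 0.705 and a flat line would give 0.655. For Srebf2 they included Tns2 (0.111), Ttyh3 (0.136), Adgra2 (0.147) and Aacs (0.149), against a median of 0.425 and 0.341 for a flat line. For Mbtps2 they were Nampt (0.109), Sptlc2 (0.129), Acap2 (0.131), Rab30 (0.134) and Pan3 (0.136), against a median of 0.348 and 0.233 for a flat line. Fdps, Hmgcs1, Nsdhl and Lss each encode an enzyme of cholesterol synthesis. Each of these likenesses is a description over libraries that share 6 groups.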

How the data were processed

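RNA of 18 libraries of MEFs was extracted with the RNeasy mini kit and read from both ends on a NovaSeq instrument, and HISAT2 placed the reads on GRCm38. The authors deposited whole-number counts of reads per gene, without normalization. The counting tool, its use of strand and its treatment of multiply aligned reads are not given in the sources used here. Columns were assigned to groups by their labels, and 0 columns were left out.

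Genes were kept by filterByExpr, libraries were scaled by TMM and a robust quasi-likelihood model was fitted to all 18 libraries (edgeR 4.0.16, R 4.3.3, common dispersion 0.0298, 12 residual degrees of freedom). DEGs passed 0.58 on the log2 scale in either direction and 0.05 for the p adjusted by Benjamini-Hochberg over 15381 genes. A standard error is the log2 fold change over the square root of F, and intervals are at 95%. For a difference of exchanges the adjusted p alone was used. On simulated counts for R-Scm 12 h against Rcm, with 15204 genes, 83% of changes of 1 and 100% of changes of 2 on the log2 scale were recovered, with 10 false calls. Smaller changes were not simulated, so that this does not say how often changes nearer 0.58 would be missed. RPKM used the exon union of each gene in GENCODE (GRCm38). Promoters came from RefSeq (GRCm38.p6). Log2 CPM had a prior count of 2. Reads carry no molecular identifiers, so that counting error is a lower bound of the error. Alternatives were RLE scaling, no filter on low counts or a stricter one (10 counts in each library), the adjusted p alone, edgeR on the compared groups, DESeq2 1.42.0, a replicate block by the numbers of the titles or, added after seeing the data, of the columns, and each library left out in turn. For Mbtps2, the sum of its counts with those of Yy2 was a further alternative. Figures were drawn with matplotlib 3.10.9.

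Named were the 7 members, at most 4 DEGs by largest change from each list, and the 5 genes nearest in pattern to each member that passed the test over groups. The members and the lists were chosen with earlier results of these data known, and the comparisons of R-Scm 12 h with Scm and S-Rcm 12 h with Rcm after the levels were seen. Some genes that this rule names are not reported here, while counts and medians of the lists include them. Protein sequences were not analysed here.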

Additional observations from a re-analysis of the deposited data

Results flagged for a closer look

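The signed change after the exchange differed between the directions for Insig1 and Srebf2 at 12 h and for Insig1 at 24 h. This was the test of the difference itself (edgeR's quasi-likelihood test), which equal changes of opposite sign can also pass. For Insig1 the change on moving to Scm minus that on moving to Rcm was -1.92 (SE 0.27, adjusted p = 0.00108) at 12 h and -1.40 (SE 0.27, adjusted p = 0.0123) at 24 h. For Srebf2 it was -0.84 (SE 0.20, adjusted p = 0.033) at 12 h, a call kept in 3 of 12 fits that each left out 1 library.

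Within the move to Scm, the effect also differed between the time points. From R-Scm 12 h to R-Scm 24 h the log2 change was 1.05 (SE 0.19, adjusted p = 0.013) for Insig1 and 0.62 (SE 0.14, adjusted p = 0.0419) for Srebf2 by edgeR. Leaving out each library in turn kept the call of Insig1 in 5 fits of 6 and that of Srebf2 in 1 of 6. With edgeR on the 2 groups alone neither was called (adjusted p = 0.35 and 0.385). All 3 libraries of R-Scm 24 h lay above all 3 of R-Scm 12 h for both genes, and also for Mbtps1, which was not called. The share of all genes without overlap is not given for this pair, so that this is no result by itself.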

How the results depend on the processing

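The 2 members called in R-Scm 12 h against Rcm stayed called under all 14 alternatives, with log2 values of -1.97 to -1.83 for Insig1 and -0.87 to -0.70 for Srebf2. Rcm against Scm gave 1 member, Insig1, with edgeR on the 2 groups alone (456 genes called in all) and with DESeq2 (484 in all). R-Scm 24 h against Rcm gave 1, Insig1, with DESeq2 (163 in all). R-Scm 24 h against R-Scm 12 h gave 0 with edgeR on the 2 groups alone (2 genes in all). S-Rcm 12 h against Rcm gave 2 with DESeq2 (301 in all), where Insig1 (-0.65, adjusted p = 0.0392) was the second. With edgeR on the 2 groups alone (181 genes in all) the count there was also 1. It was Insig1 (-0.66, adjusted p = 0.0106) and not Mbtps2 (-0.60, adjusted p = 0.0731). Leaving out each library in turn, the members called ranged from 0 to 1 in R-Scm 24 h against Rcm, 0 to 2 in R-Scm 24 h against R-Scm 12 h, 1 to 2 in the difference of exchanges at 12 h, 0 to 2 in that at 24 h, 1 to 2 in R-Scm 12 h against Scm, 0 to 1 in S-Rcm 12 h against Rcm and 2 to 3 over the 6 groups. These fits hold fewer libraries. The causes of the other changes were not tested.

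Same-numbered libraries were not paired by the labels. Of 45 pairs of same-numbered libraries, 11 had deviations that correlated above 0.1 (range -0.196 to 0.346), and 7 of 18 libraries correlated best with their own number. Of 90 pairs with different numbers, 16 correlated above 0.1 (range -0.269 to 0.212). With the replicate block, 1 member was called in R-Scm 24 h against Rcm, Insig1 at -0.90, 2 in R-Scm 12 h against Rcm, 2 in R-Scm 24 h against R-Scm 12 h, 2 and 1 in the differences of exchanges at 12 h and 24 h, and 3 over the 6 groups, and no other call of a member changed. These numbers are those of the titles. The columns of S-Rcm 24 h, R-Scm 12 h and R-Scm 24 h are numbered 1, 3 and 4. A replicate block by column number, chosen after seeing the data, did not call Insig1 in R-Scm 24 h against Rcm (-0.82, edgeR adjusted p = 0.141). It left 1 member in the difference of exchanges at 12 h, where Srebf2 was at -0.80 (edgeR adjusted p = 0.067), and 2 over the 6 groups. It turned Scap in R-Scm 24 h against Rcm to -0.035.

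The sign changed for values near 0. Insig1 in S-Rcm 12 h against Scm, 0.0036, was -0.0064 with RLE scaling, -0.0058 without a filter, -0.0038 with at least 10 counts in every library and -0.0071 with edgeR on the 2 groups alone. Leaving out each library in turn gave ranges across 0 for members that were not called. In S-Rcm 12 h against Scm they were -0.13 to 0.027 for Srebf1, -0.054 to 0.15 for Srebf2 and -0.036 to 0.047 for Insig1, and at 24 h -0.076 to 0.0016 for Srebf1. In R-Scm 12 h against Rcm they were -0.11 to 0.015 for Scap and -0.20 to 0.028 for Mbtps2, and at 24 h -0.061 to 0.13 for Srebf1 and -0.044 to 0.10 for Scap. In the differences of exchanges they were -0.16 to 0.051 for Srebf1 and -0.063 to 0.072 for Scap at 12 h, and -0.015 to 0.19 and -0.089 to 0.063 at 24 h. Between time points they were -0.23 to 0.022 for Insig2 in R-Scm, and in S-Rcm -0.073 to 0.079 for Srebf1, -0.0032 to 0.070 for Insig2 and -0.13 to 0.025 for Mbtps1. In S-Rcm 12 h against Rcm they were -0.20 to 0.0032 for Srebf2, -0.014 to 0.12 for Scap and -0.024 to 0.041 for Mbtps1. No other direction of a member changed.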
